A study of Homo sapiens with 44 samples.

Results

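The 10 genes that were higher in VCaP xenograft tumors under both antiandrogens, enzalutamide and ARN-509, were followed tumor by tumor: NOV, FRAS1, TSPAN7, OPRK1, GNG2, GRIA2, SLC7A14, ATP2B2, SAMD11 and LOC100130417. They are 10 of the 23368 genes in the deposited count table. They were selected on their rise against vehicle with enzalutamide and with ARN-509 in these same tumors. The comparisons of either drug with vehicle are therefore given for them as a description, without a test. VCaP is an established human prostate cancer line that carries the TMPRSS2-ERG fusion, and all tumors came from this 1 line, at passage 61, grown in athymic nude mice (HSD:Athymic Nude-Foxn1nu) that were castrated. Animals were then gavaged for 4 weeks with vehicle (15 tumors) or, at 20 mg/kg/day, with enzalutamide (14 tumors) or ARN-509 (15 tumors), 1 tumor per mouse. Castration and the nude host, which lacks a thymus but keeps other immune cells, were common to all arms, so vehicle tumors stand for castration-resistant growth and not for growth with testicular androgen. Mice had been allocated so that PSA, its change, body weight, cage and week of castration were balanced. A single enzalutamide library of 80142 counts, enzalutamide 4, was left out, which leaves 43 tumors.

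Androgen signaling induces some genes and lowers the transcription of others, the latter partly through co-repressors and histone-modifying enzymes. Enzalutamide and ARN-509 (apalutamide) are antiandrogens that block this signaling, so genes that it holds down can rise under either drug. In the prostate, NOV and OPRK1 have been described as genes that androgen lowers. The 10 genes do not form 1 pathway. NOV (CCN3) and FRAS1 encode proteins of the extracellular matrix, TSPAN7 a tetraspanin of the cell surface, OPRK1 the kappa opioid receptor and GNG2 a gamma subunit of the G proteins through which such receptors signal. GRIA2 encodes an AMPA-type glutamate receptor subunit, SLC7A14 a lysosomal member of the cationic amino acid transporter family and ATP2B2 a calcium pump of the plasma membrane. SAMD11 encodes a nuclear protein with a SAM domain, and LOC100130417, now named LINC02593, is a long non-coding RNA.

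Promoters of 4 genes are shown, for the nearby pair SAMD11 and LOC100130417 and for SLC7A14 and GRIA2, since the members of each pair varied together in 1 arm. Each is the 250 bases before a RefSeq start site (GRCh38.p14), read 5′ to 3′ on the gene's strand, with CpG dinucleotides in capitals. The windows are chr1:925481-925730 (plus strand) for SAMD11, chr1:919693-919942 (minus strand) for LOC100130417, chr3:170586076-170586325 (minus strand) for SLC7A14 and chr4:157220369-157220618 (plus strand) for the last of 3 listed starts of GRIA2.
SAMD11: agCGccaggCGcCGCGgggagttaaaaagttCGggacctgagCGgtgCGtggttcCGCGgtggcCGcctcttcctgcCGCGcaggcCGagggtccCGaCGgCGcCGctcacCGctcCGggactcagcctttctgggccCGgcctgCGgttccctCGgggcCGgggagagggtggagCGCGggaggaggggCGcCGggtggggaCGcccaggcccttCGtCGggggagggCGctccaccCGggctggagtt
LOC100130417: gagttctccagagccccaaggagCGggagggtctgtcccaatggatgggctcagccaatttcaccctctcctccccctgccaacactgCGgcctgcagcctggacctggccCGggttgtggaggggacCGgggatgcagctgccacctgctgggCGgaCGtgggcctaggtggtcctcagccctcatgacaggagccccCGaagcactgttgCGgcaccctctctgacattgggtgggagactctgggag
SLC7A14: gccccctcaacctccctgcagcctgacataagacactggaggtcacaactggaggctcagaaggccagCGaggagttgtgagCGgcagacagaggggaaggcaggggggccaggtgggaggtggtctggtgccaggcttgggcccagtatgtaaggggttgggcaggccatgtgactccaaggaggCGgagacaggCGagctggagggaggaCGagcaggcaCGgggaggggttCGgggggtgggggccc
GRIA2: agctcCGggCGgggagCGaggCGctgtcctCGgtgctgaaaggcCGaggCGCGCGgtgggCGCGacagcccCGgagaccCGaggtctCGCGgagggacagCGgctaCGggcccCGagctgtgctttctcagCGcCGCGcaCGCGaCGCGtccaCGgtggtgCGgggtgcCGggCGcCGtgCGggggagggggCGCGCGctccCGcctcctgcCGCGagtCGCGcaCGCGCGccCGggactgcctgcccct
The SAMD11 window held 32 CpG and that of LOC100130417 held 8, beside a median of 11 over the 35116 promoters of the RefSeq table. SLC7A14 had 7 and this GRIA2 start 43, while the other 2 GRIA2 starts had 6 and 8. The start sites of SAMD11 and LOC100130417 lay 6.04 kb apart, transcribed away from each other, with 1 other RefSeq gene (LOC107985728) between them.

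RefSeq promoters were searched for 7 of the 10 genes, with 16 start sites. Each was searched on both strands from 250 bases before to 50 after the start. NOV, OPRK1 and TSPAN7 were not searched. Entries on the chromosome of NOV and OPRK1 were left out for the members but kept in the shares of all promoters. AGAACA, the hexamer of the androgen response element, was in 0 of the 16, against 14.8% of all promoters in the table. The full element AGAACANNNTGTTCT was in 0 of them (0.00285% of all promoters), as was the forkhead motif TGTTTAC (3.42%) and the E-box CACGTG (7.26%). A pair of GGAA cores of the ETS family, 0 to 3 bases apart, was in 1 start of GNG2 and in 12.5% of all promoters. These are letters in a short window, and distant elements were not searched. The 16 starts belong to 7 genes, and some windows of ATP2B2 and of GRIA2 overlap. They are not independent, and their shares were not tested against those of all promoters.

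The 43 libraries held 4.19 to 25.8 M counts with vehicle, 4.72 to 16.9 M with enzalutamide and 3.38 to 30.1 M with ARN-509 (M, mega), and 13520 genes, all 10 members included, passed the filter on low counts. A gene that passed only through the treated arms had to differ, so passing carries no weight of its own. Vehicle 8 and vehicle 10 stood apart from their arm, with a Pearson r of 0.890 and 0.916 across 4708 genes with the mean of its other tumors, and values without them are given where they matter. TRPM8, an androgen-induced cation channel, fell by 2.54 ± 0.28 (SE) on the log2 scale with enzalutamide and by 2.03 ± 0.26 with ARN-509 (edgeR quasi-likelihood test, adjusted p = 1.12e-08 and 1.50e-07). Prostate luminal markers (9 of 9 tested) summed to 6700 to 10200 CPM (counts scaled to a common library size) with vehicle, 7390 to 9950 with enzalutamide and 6500 to 8580 with ARN-509, overlapping between arms. Endothelial markers (0 of 5 passed the filter) summed to 2.0 to 6.69 CPM with vehicle, 0.405 to 2.73 with enzalutamide and 0.210 to 1.67 with ARN-509, with CDH5 and KDR at a median count of 0 in every arm. Fibroblast markers (2 of 7 tested) spanned 12.6 to 30.7, 13.7 to 23.9 and 11.3 to 29.4 CPM, and leukocyte markers (1 of 5 tested) 4.08 to 10.4, 4.45 to 9.62 and 4.57 to 11.2 CPM, overlapping between arms. The part of the endothelial difference in the results below was not tested. In bulk tumors, more cells of a type and more RNA per cell cannot be told apart.

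NOV, the matricellular protein, separated the treated arms from vehicle completely. It ran from 0.261 to 4.44 CPM in vehicle tumors (median 1.58), from 6.98 to 21.0 with enzalutamide (median 12.1) and from 8.20 to 21.7 with ARN-509 (median 15.7). Every treated tumor was above the highest vehicle tumor, vehicle 10. Its log2 fold change was 2.89 ± 0.22 (SE, n = 13 against 15) with enzalutamide and 3.22 ± 0.21 (n = 15 against 15) with ARN-509. FRAS1, which anchors epithelia to the underlying matrix, was low throughout. It ran from 0 to 2.91 CPM with vehicle (median 0.804, 3 tumors without a read), from 1.45 to 4.79 with enzalutamide (median 2.10) and from 1.52 to 9.14 with ARN-509 (median 3.65). Only 4 of 13 enzalutamide and 10 of 15 ARN-509 tumors exceeded the highest vehicle tumor, so the arms overlapped. The log2 fold changes were 1.51 ± 0.32 and 2.13 ± 0.30. TSPAN7 ran from 0 to 1.63 CPM with vehicle (median 0.550), from 1.25 to 3.66 with enzalutamide (median 2.01) and from 1.46 to 8.16 with ARN-509 (median 2.61). The median count behind the vehicle values was 4, and 10 of 13 and 12 of 15 treated tumors were above the highest vehicle tumor. Its log2 fold changes were 1.77 ± 0.29 and 2.27 ± 0.28.

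OPRK1, the opioid receptor, changed least of the 10 genes. It ran from 2.71 to 11 CPM with vehicle (median 4.26), from 6.17 to 19.7 with enzalutamide (median 8.97) and from 4.07 to 25.7 with ARN-509 (median 8.73). The arms overlapped widely, with 4 of 13 and 5 of 15 treated tumors above the highest vehicle tumor. On the log2 scale the fold changes were 0.79 ± 0.23 and 0.92 ± 0.22. GNG2, the G protein subunit, ran from 0.388 to 2.84 CPM with vehicle (median 1.06), from 0.729 to 6.79 with enzalutamide (median 4.01) and from 3.51 to 8.60 with ARN-509 (median 6.08). All ARN-509 tumors but only 11 of 13 enzalutamide tumors were above the vehicle arm, and enzalutamide 5, at 0.729 CPM, lay below the vehicle median. Log2 fold changes were 1.44 ± 0.24 and 2.06 ± 0.23. GRIA2, the glutamate receptor subunit, spread the most within the enzalutamide arm. It ran from 3.02 to 21.9 CPM with vehicle (median 4.58), from 5.65 to 95.7 with enzalutamide (median 29.8) and from 18.6 to 112.0 with ARN-509 (median 44.8). Vehicle 12 was the highest vehicle tumor and the next, vehicle 11, had 11.5 CPM. Of the treated tumors, 9 of 13 with enzalutamide and 13 of 15 with ARN-509 were above vehicle 12. Enzalutamide 1 and 5 were the lowest at 5.88 and 5.65 CPM, while tumor 14 of that arm reached 95.7. The log2 fold changes were 2.31 ± 0.34 and 3.05 ± 0.33.

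SLC7A14, the transporter-family protein, had the largest smaller-of-both fold change of all tested genes. It ran from 0.0869 to 1.55 CPM with vehicle (median 0.532, a median count of 4), from 1.40 to 8.62 with enzalutamide (median 4.88) and from 2.80 to 11.3 with ARN-509 (median 7.47). Only enzalutamide 5 was not above the highest vehicle tumor. On the log2 scale the fold changes were 2.94 ± 0.27 and 3.39 ± 0.26. ATP2B2, the calcium pump, was the most uneven member among vehicle tumors. It ran from 0 to 4.88 CPM with vehicle (median 0.406), from 3.04 to 5.73 with enzalutamide (median 4.62) and from 1.55 to 6.94 with ARN-509 (median 5.18). Its coefficient of variation was 128.0% with vehicle and 17.4% with enzalutamide, where counting error alone accounts for 83.5% of the variance. Vehicle 11 lay within the treated range, so only 4 of 13 and 9 of 15 treated tumors exceeded it. Log2 fold changes were 2.09 ± 0.30 and 2.22 ± 0.30.

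SAMD11 and LOC100130417 lie near each other, and their fold changes were similar in size. SAMD11 ran from 0.956 to 10.9 CPM with vehicle (median 2.50), from 10.7 to 43.2 with enzalutamide (median 18.2) and from 12.8 to 40.6 with ARN-509 (median 19.5). All treated tumors but enzalutamide 5 (10.7 CPM) were above vehicle 11 (10.9 CPM). LOC100130417 ran from 0.174 to 4.76 CPM with vehicle (median 1.83), from 5.45 to 12.7 with enzalutamide (median 9.58) and from 6.33 to 15.9 with ARN-509 (median 8.77). No treated tumor overlapped the vehicle arm. The log2 fold changes were 2.46 ± 0.24 and 2.39 ± 0.24 for SAMD11 and 2.30 ± 0.24 and 2.29 ± 0.23 for LOC100130417. SAMD11 overlaps NOC2L on the other strand, and the library kit does not mark strand, so reads of the overlap cannot be told apart. NOC2L averaged 118.9 CPM with vehicle, 119.6 with enzalutamide and 106.5 with ARN-509. Of 7 tested neighbours of this pair that are no members, 0 passed the threshold with enzalutamide (edgeR, adjusted p below 0.05), and 1 rose (PLEKHN1) and 2 fell (ISG15 and NOC2L) with ARN-509. Their median log2 fold changes were -0.07 and -0.16.

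**Figure D1:**
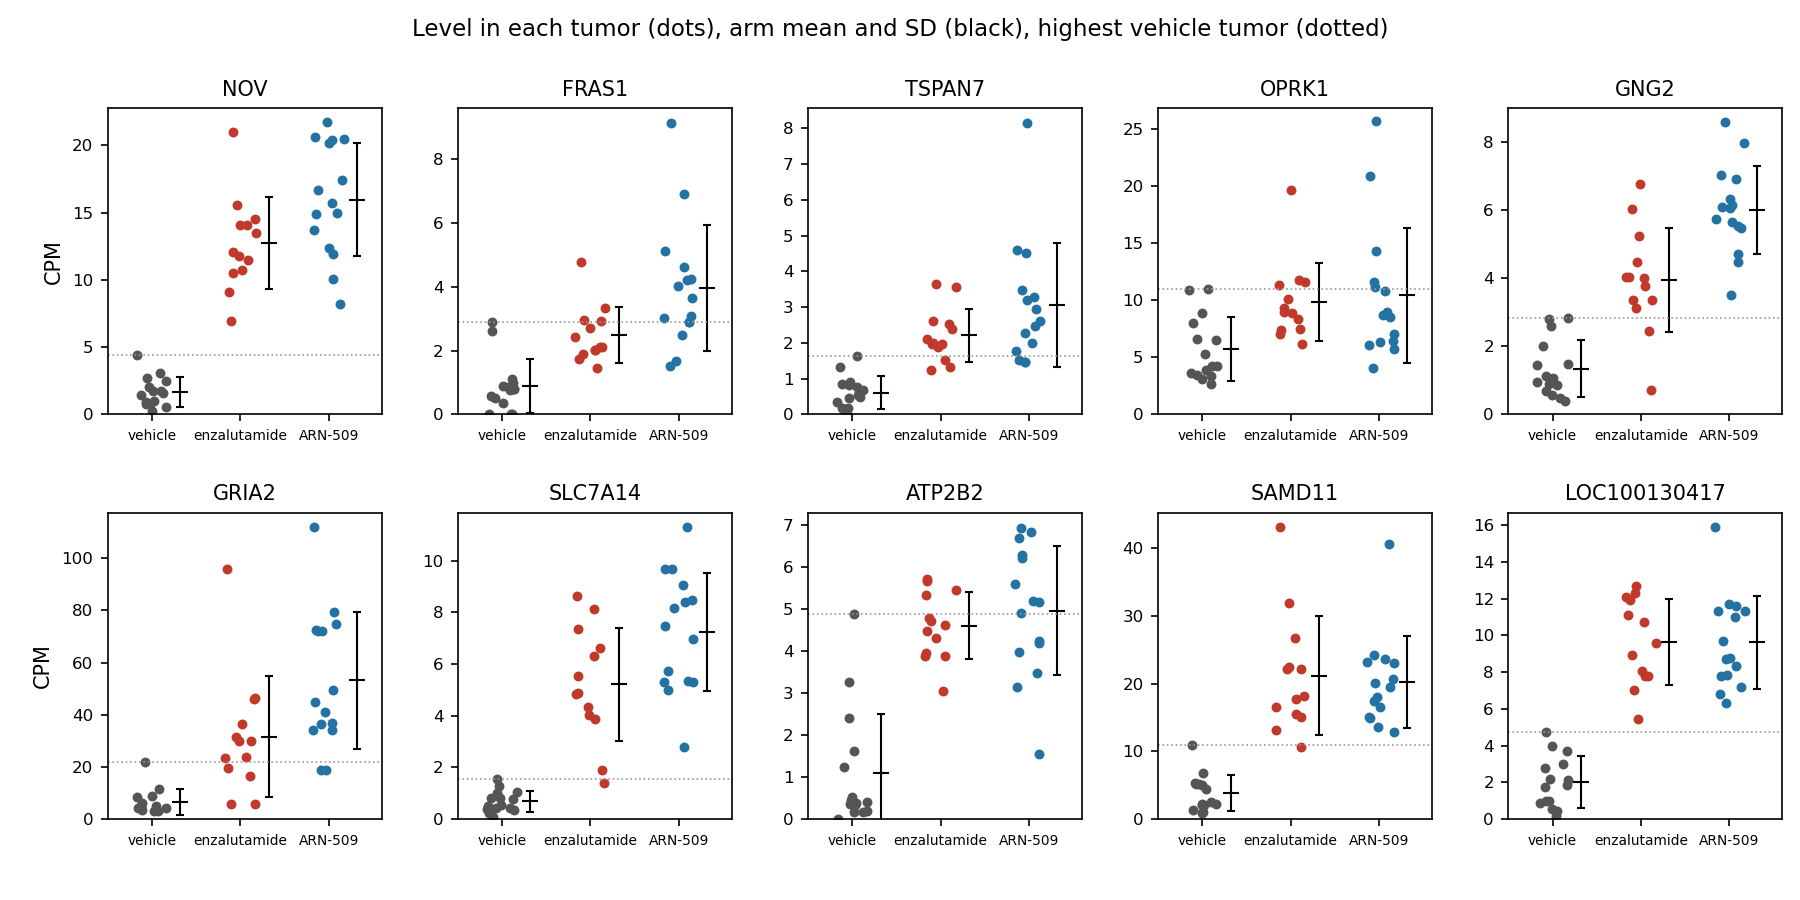
Level (CPM) of each gene in each tumor (vertical axis, linear, starting at 0) for vehicle (15 tumors), enzalutamide (13) and ARN-509 (15). The black mark and bar are the arm mean and SD, and the dotted line is the highest vehicle tumor, which every treated tumor exceeds for NOV and LOC100130417.

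All 10 genes passed the threshold upward in both drug contrasts, as the selection requires. Of all 13520 tested genes, 5.10% were higher and 5.67% lower with enzalutamide (689 and 766 genes), and 14.7% were higher and 16.1% lower with ARN-509 (1988 and 2178). With library totals as the only scaling, these splits were 838 and 600, and 2713 and 1466. Ranked by the smaller of the log2 fold changes of both drugs, SLC7A14, NOV, SAMD11, GRIA2, LOC100130417 and ATP2B2 were the first 6 of all genes, TSPAN7 was rank 10, FRAS1 17 and GNG2 18. BMX (1.84), EYA2 (1.82) and RND3 (1.78) ranked above TSPAN7 (1.77), and KCNJ3, GPC6, TMEM229B, ADCY2, PLA2G2A and APOL4 ranked between it and FRAS1. The first genes below GNG2 (1.44) were ADAM7 (1.42) and CA4 (1.39). OPRK1, at 0.79, was rank 97, so it is not among the genes most raised by both drugs.

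The response of single tumors was read as the number of the 10 genes above their highest vehicle tumor. In the ARN-509 arm this number was 7 to 10 per tumor (median 8), and tumors 1, 2 and 15 had all 10. In the enzalutamide arm it was 4 to 8 (median 7), and no tumor had all 10. Enzalutamide 5 had 4 (NOV, ATP2B2, OPRK1 and LOC100130417) and held the lowest value of its arm for 5 genes, NOV, SLC7A14, GRIA2, SAMD11 and GNG2. The same tumor had the highest KLK3 (742 CPM, arm median 254) and FKBP5 (378 CPM, arm median 210) of its arm, both androgen-induced genes. Its STEAP4, androgen-induced as well, was at 7.17 CPM (arm median 2.63, highest 7.56 in enzalutamide 1). Its TRPM8, also androgen-induced, was instead the lowest of the arm at 19.8 CPM (arm median 79.0). Low response was thus not shared by all 10 genes in that tumor, since OPRK1 (11.8 CPM) and ATP2B2 (5.34 CPM) were above their arm medians. Over the genes, 2 of 10 separated completely from vehicle with enzalutamide (NOV and LOC100130417) and 5 of 10 with ARN-509 (SLC7A14, SAMD11 and GNG2 in addition). Of all tested genes, 0.0296% and 0.118% did so. Among vehicle tumors, vehicle 1 was the lowest for NOV, SLC7A14, SAMD11 and LOC100130417, and vehicle 11 the highest for SAMD11 and ATP2B2.

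**Figure D2:**
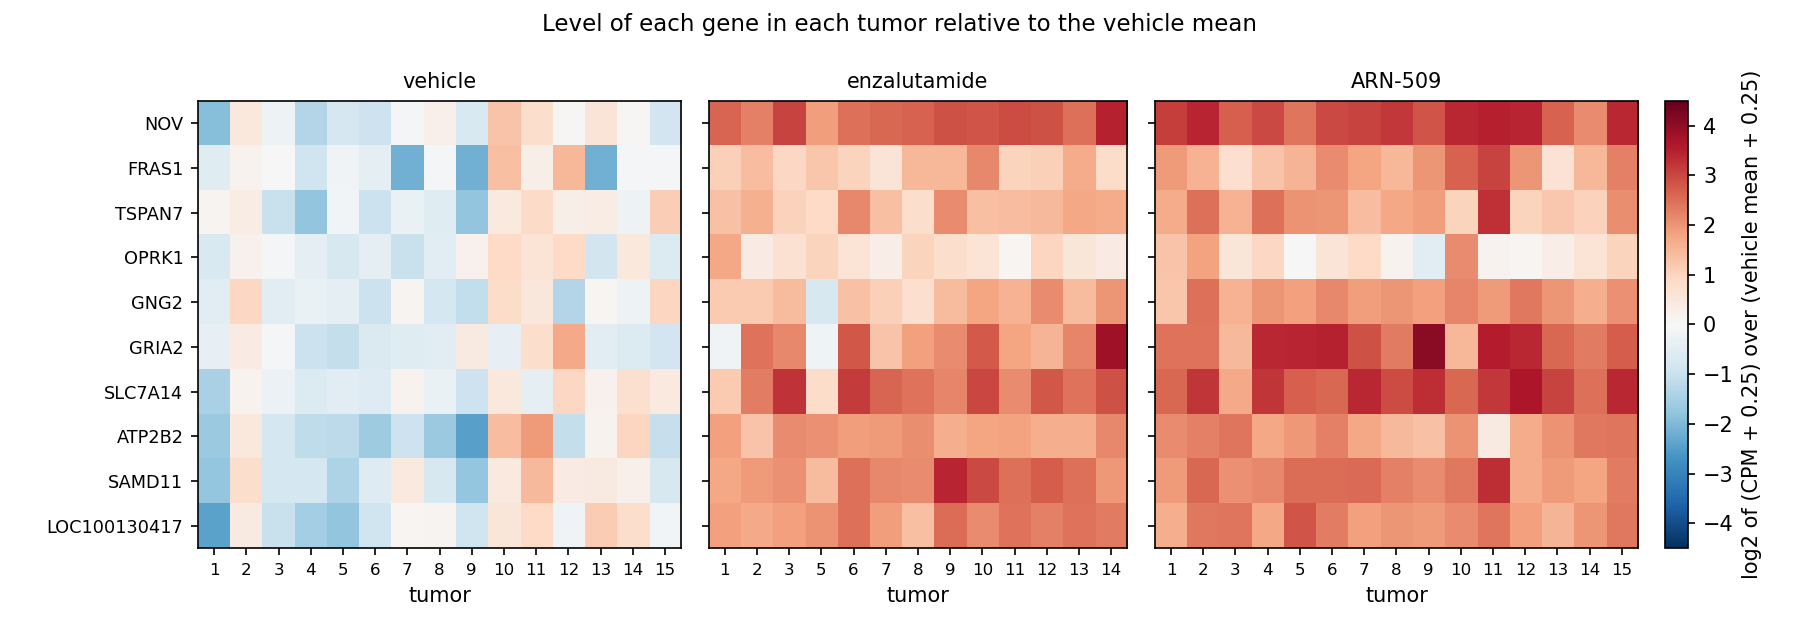
Log2 ratio of each tumor's level to the vehicle mean (color, blue below and red above), with 1 row per gene and 1 column per tumor in each arm. OPRK1 is the palest row in the treated arms, and enzalutamide 5 is pale for GNG2, GRIA2 and SLC7A14.

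The coefficient of variation across tumors was lower with enzalutamide than with vehicle for 10 of 10 genes and lower with ARN-509 for 9 of 10, OPRK1 being the exception. Its median over the genes was 70.2% with vehicle, 35.1% with enzalutamide and 32.6% with ARN-509. The genes were selected on their rise against vehicle, and the share of all tested genes with a lower coefficient was not computed. A lower coefficient is thus not shown to be particular to them. Counting error makes up more of the spread at low counts. It accounted for 65.2% of the variance of SLC7A14 with vehicle and 12.6% with enzalutamide, but for 4.39% and 0.688% for GRIA2, whose coefficients of variation were 74.3% and 73.3%.

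The contrast between the drugs was not itself used to select the genes, and it was tested. Levels of both treated arms did enter the selection, through their rise against vehicle. Of the 10 genes, 8 were lower with enzalutamide than with ARN-509, but only GNG2 passed. The median log2 difference of the 10 was -0.39 (0.01 over all tested genes), which is not shown to be particular to them. Among the genes ranked next below GNG2, ADAM7 (-0.33), TLL2 (-0.45), LOC100506013 (-0.55) and PGM5 (-0.28) were also lower with enzalutamide. CA4 was higher (0.68), and none of these passed. GNG2 differed by -0.62 ± 0.21 (SE, 95% interval -1.04 to -0.20, edgeR quasi-likelihood test, adjusted p = 0.0249). The call held when each library of the treated arms was left out in turn (28 fits), and single vehicle libraries were not left out for this contrast. It did not hold after removing the dependence of counts on GC content and transcript length (-0.50, adjusted p = 0.112). Thus 1 of 10 members was called, and of all tested genes 26.8% were called and 14.6% were called lower with enzalutamide (1647 higher and 1976 lower, or 1202 and 2263 with library totals as the only scaling). Under limma voom 4 of 10 members and 5707 genes were called, and with the dependence on GC content and length removed 0 of 10 and 1080. The difference between the members' share and that of all genes was not tested.

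The other differences did not pass, including those of GRIA2 and FRAS1, which were wider than that of GNG2. GRIA2 differed by -0.74 (95% interval -1.35 to -0.13, adjusted p = 0.0616), FRAS1 by -0.63 (-1.16 to -0.10, adjusted p = 0.0677), SLC7A14 by -0.45 (-0.85 to -0.04, adjusted p = 0.0907) and TSPAN7 by -0.50 (-0.97 to -0.03, adjusted p = 0.0994). These 4 and GNG2 had an unadjusted p below 0.05. The calls of GRIA2, FRAS1 and SLC7A14 depended on single tumors. GRIA2 passed without enzalutamide 14 (-1.01, adjusted p = 0.00967), enzalutamide 10 (adjusted p = 0.0477), ARN-509 tumor 3 (0.0375) or ARN-509 tumor 10 (0.0458), and under limma voom (0.00694). FRAS1 passed without enzalutamide 10 (adjusted p = 0.0288), ARN-509 tumor 3 (0.0411), ARN-509 tumor 13 (0.0431) or vehicle 8 and 10 together (0.0493), and with DESeq2 (0.0485), voom (0.0486) or a fit of only the treated arms (0.028). SLC7A14 passed without ARN-509 tumor 3 (adjusted p = 0.043). NOV differed by -0.33 (-0.68 to 0.03, adjusted p = 0.158, and 0.0294 under voom). The remaining differences were small: -0.13 for OPRK1 (-0.57 to 0.31), -0.13 for ATP2B2 (-0.64 to 0.38), 0.07 for SAMD11 (-0.36 to 0.50) and 0.01 for LOC100130417 (-0.39 to 0.42). These intervals leave room for levels lower with enzalutamide by up to 0.64 or higher by up to 0.50, so equality of the drugs was not shown.

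**Figure D3:**
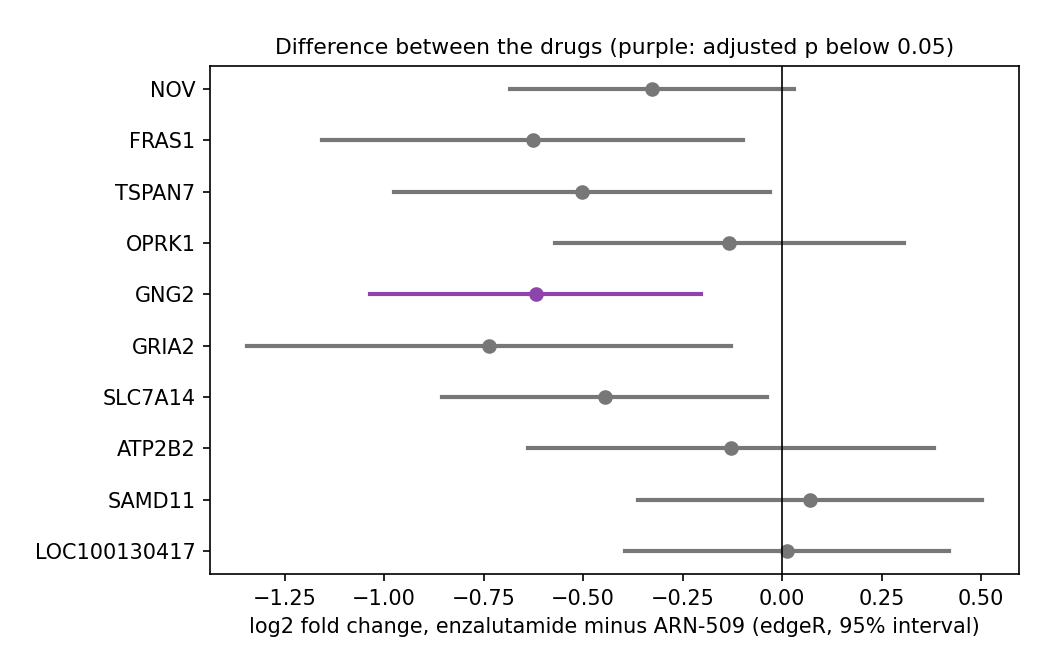
Log2 fold change of enzalutamide minus ARN-509 for each gene (point) with its 95% interval (bar), from edgeR on 43 tumors. Points left of 0 are lower with enzalutamide, and GNG2 alone has an adjusted p below 0.05.

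Within an arm all tumors had the same treatment, and log2 CPM of the genes was compared tumor by tumor over 45 pairs in each of 3 arms (two-sided permutation test with 100000 resamples, Benjamini-Hochberg adjustment over all pairs of all arms). In the vehicle arm 44 of 45 pairs were positive, with a median Pearson r of 0.44, and 6 pairs passed. Over all pairs of tested genes the median r was -0.0 in each arm, and their share of positive pairs was not computed. NOV and LOC100130417 varied together most closely (r = 0.871, permutation p = 1e-05, the smallest the resampling can give, adjusted p = 0.00135, and Spearman rho = 0.879, p = 6e-05, adjusted p = 0.0081). SAMD11 followed LOC100130417 (r = 0.833, permutation p = 6e-05, adjusted p = 0.0036, and rho = 0.796, p = 0.00062, adjusted p = 0.042). It also followed ATP2B2 (r = 0.822, permutation p = 8e-05, adjusted p = 0.0036, and rho = 0.771, p = 0.00109, adjusted p = 0.049). These 3 pairs passed by both measures. NOV with SAMD11 (r = 0.793, rho = 0.746), NOV with ATP2B2 (r = 0.732, rho = 0.693) and SLC7A14 with LOC100130417 (r = 0.715, rho = 0.618) passed by r alone, with adjusted permutation p of 0.017, 0.035 and 0.040 (unadjusted 0.0005, 0.00166 and 0.00268). Without the 2 tumors farthest from the median of the first gene, the 6 values of r were 0.841, 0.818, 0.724, 0.764, 0.676 and 0.669 in the order given. Among all pairs of tested genes in vehicle tumors, 4.44% had an r at least as high as the lowest of the 6. Without vehicle 8 and 10, 7 pairs passed.

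In the treated arms fewer pairs passed and they were other pairs. With enzalutamide the median r was 0.16 and 2 of 45 pairs passed, SLC7A14 with GRIA2 (r = 0.810, permutation p = 0.00183, adjusted p = 0.035, rho = 0.637, p = 0.022) and NOV with GNG2 (r = 0.785, p = 0.0025, adjusted p = 0.040, rho = 0.670, p = 0.015). With ARN-509 the median r was 0.18 and 1 pair passed, SAMD11 with TSPAN7 (r = 0.756, permutation p = 0.0014, adjusted p = 0.035, rho = 0.607, p = 0.018). None of these 3 passed by rho after adjustment. Without the 2 tumors farthest from the median of the first gene, r fell to 0.359, 0.477 and 0.458. Leaving them out also narrows the range of that gene, which can itself lower r. How far each pair rests on those tumors can therefore not be told from this. The shares of all gene pairs with an r as high were 0.926% with enzalutamide and 0.971% with ARN-509. The pair NOV and LOC100130417, at 0.871 with vehicle, had an r of 0.253 with enzalutamide and -0.01 with ARN-509, whereas SAMD11 and LOC100130417 stayed positive at 0.538 and 0.573. Differences in r between arms were not tested. The r between log2 library total and a gene's level ran from -0.18 to 0.34 with vehicle, -0.45 to 0.46 with enzalutamide and -0.31 to 0.53 with ARN-509.

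**Figure D4:**
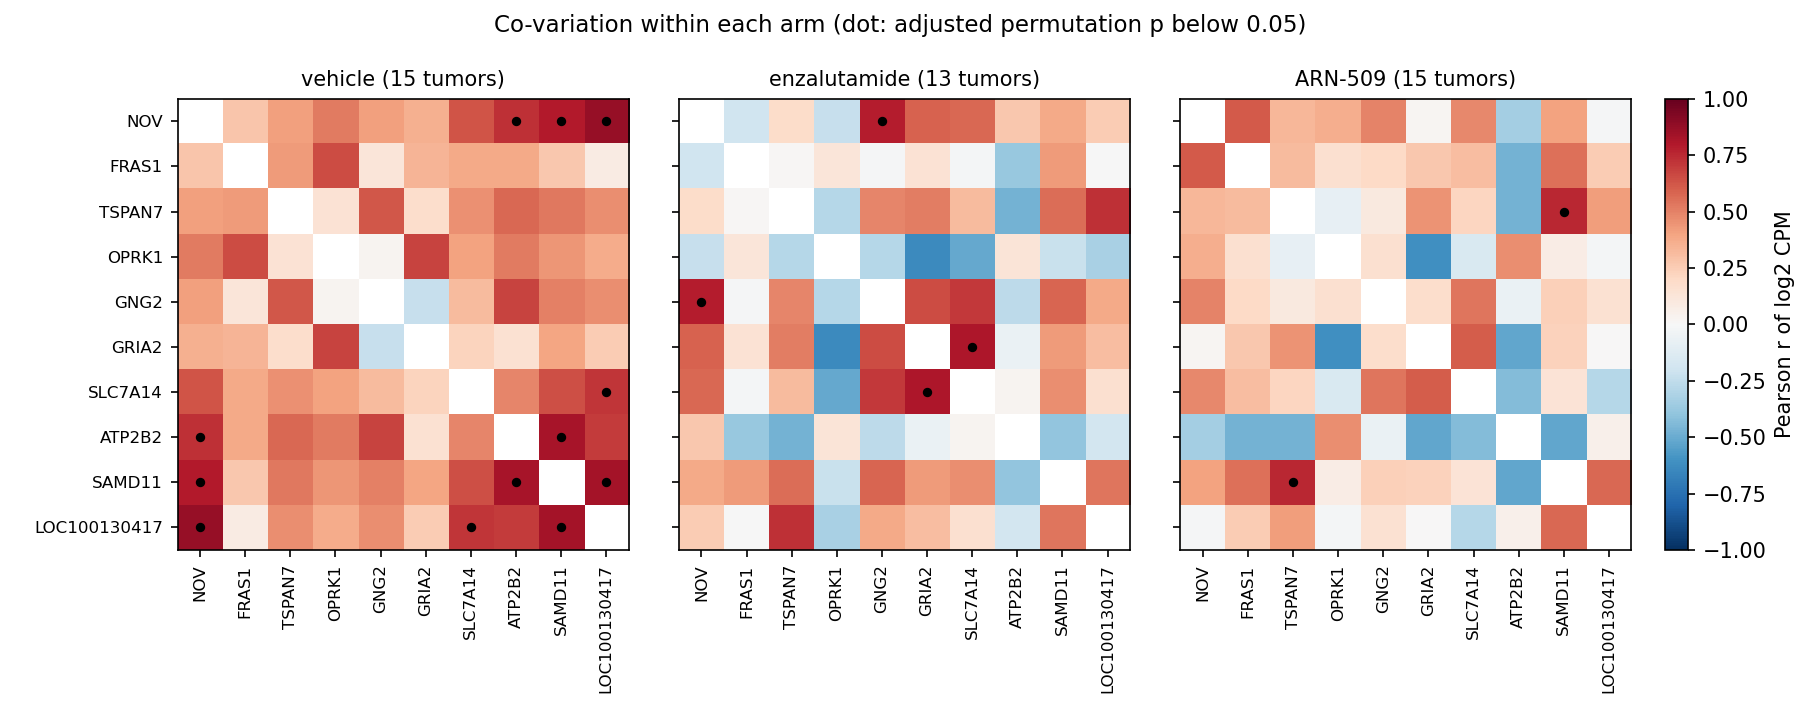
Pearson r of log2 CPM for each pair of genes within each arm (color, blue negative and red positive), with a dot where the adjusted permutation p was below 0.05. The vehicle panel is nearly all red and holds 6 called pairs, and the treated panels hold 2 and 1.

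The 10 genes were set against 4 androgen-induced genes (KLK3, FKBP5, TRPM8 and STEAP4) within each arm (40 relations in each, same test, with p-values adjusted over a family of 150). In vehicle tumors 8 relations passed. NOV, SAMD11, ATP2B2 and LOC100130417 were high where TRPM8 and STEAP4, a metalloreductase, were low. With TRPM8, r was -0.707, -0.782, -0.851 and -0.775 and rho was -0.871, -0.811, -0.721 and -0.921 in that order (permutation p of r = 0.00286, 0.00023, 6e-05 and 0.00067, adjusted p = 0.039, 0.006, 0.004 and 0.013). All 4 relations to TRPM8 also passed by rho (adjusted p = 0.006, 0.013, 0.048 and 0.0045). Of the tested genes, 1.49%, 0.540%, 0.0960% and 0.584% had an r with TRPM8 at least as low. With STEAP4, r was -0.689, -0.799, -0.705 and -0.716 (permutation p = 0.00426, 0.00024, 0.00361 and 0.00278, adjusted p = 0.049, 0.006, 0.045 and 0.039). An r with STEAP4 at least as low was found for 1.48%, 0.259%, 1.20% and 1.09% of the tested genes. By rho the relation of ATP2B2 to STEAP4 did not pass (adjusted p = 0.087), and the other 3 did (0.013, 0.011 and 0.011). No relation to KLK3 or FKBP5 passed in this arm: r of the 10 genes ran from -0.209 to 0.509 with KLK3 and from -0.615 to 0.138 with FKBP5. Without the 2 tumors farthest from the median, the 8 values of r ran from -0.791 to -0.598.

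Vehicle 11 had the lowest TRPM8 (101 CPM) and STEAP4 (4.43 CPM) of its arm, with SAMD11 at 10.9 and ATP2B2 at 4.88 CPM. Vehicle 1 had the highest TRPM8 (801 CPM) and STEAP4 (132 CPM), with SAMD11 at 0.956 and NOV at 0.261 CPM. Vehicle 11 thus lay nearest to the treated arms, whose TRPM8 ran from 19.8 to 175 CPM with enzalutamide and from 57.2 to 213 with ARN-509. Without vehicle 11, 2 relations passed. Without vehicle 1, 2, 4, 5 or 6 the number was 4, without vehicle 3, 9 or 14 it was 5, and without any other vehicle tumor it was 7 to 9.

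In treated tumors fewer relations passed, and they were others. With enzalutamide 2 passed: GRIA2 was lower where KLK3 was higher (r = -0.829, permutation p = 0.00034, adjusted p = 0.00729, rho = -0.835, p = 0.00063) and higher where TRPM8 was higher (r = 0.873, p = 8e-05, adjusted p = 0.004, rho = 0.747, p = 0.0047). Without the 2 farthest tumors these were -0.616 and 0.739. Of the tested genes, 0.244% had an r with KLK3 at least as low, and 0.111% an r with TRPM8 at least as high. Without enzalutamide 5, 1 relation passed, and without enzalutamide 2 there were 5. With ARN-509, 0 of 40 relations passed by r or by rho (permutation tests), while 7 by r and 5 by rho had an unadjusted p below 0.05. The smallest p by r was that of LOC100130417 with KLK3 (r = 0.674, permutation p = 0.00555, adjusted p = 0.052, rho = 0.607, p = 0.018). Without ARN-509 tumor 2 the count was 3, and without tumor 5, 6, 11 or 13 it was 1.

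**Figure D5:**
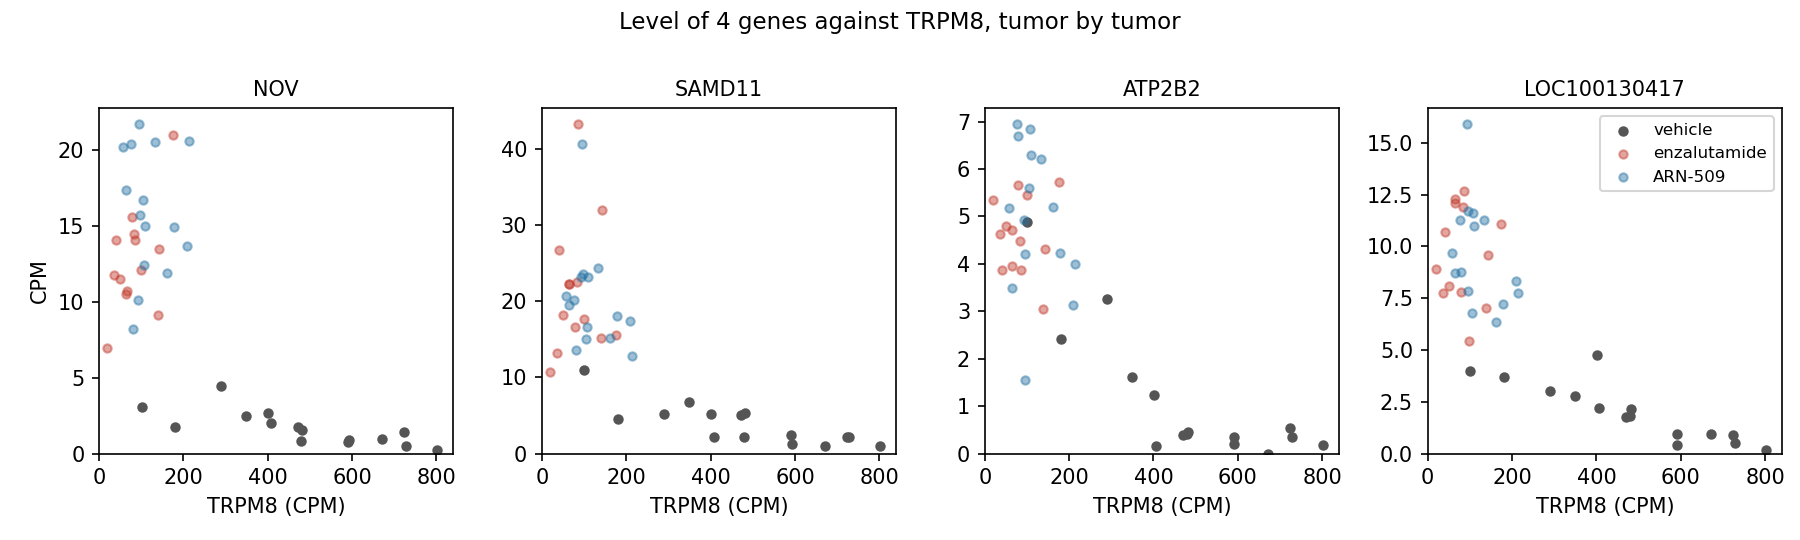
Level of NOV, SAMD11, ATP2B2 and LOC100130417 (vertical axes, CPM) against TRPM8 (horizontal axes, CPM), 1 point per tumor. Among vehicle tumors (black) all 4 genes were higher where TRPM8 was lower, and treated tumors (red and blue) lie at TRPM8 levels of 19.8 to 213 CPM.

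The gene most alike each member was taken as the one with the highest Pearson r of log2 CPM over the 43 tumors after the mean of each arm was removed, as a description. NOV was closest to LOC100130417 (r = 0.70), followed by PLA2G2A and SAMD11 (0.67 each). LOC100130417 was closest to PRSS3, a trypsinogen (0.82), with SAMD11 second (0.76). SAMD11 was closest to AQP3, an aquaglyceroporin (0.81), and ATP2B2 to SDC2, a heparan sulfate proteoglycan (0.84). OPRK1 was closest to SYT13 (0.79), GRIA2 to ADAMTSL1 (0.76), FRAS1 to SYTL2 (0.71), GNG2 to the prostaglandin receptor gene PTGER2 (0.70), SLC7A14 to SLC24A2, a sodium, calcium and potassium exchanger (0.67), and TSPAN7 to C5orf38 (0.66). Of these, PRSS3, AQP3, SDC2, ADAMTSL1, SYTL2 and SLC24A2 also passed the test upward with both drugs. C5orf38, PTGER2 and SYT13 passed with neither. These tumors share their arms and libraries, and each r is the largest over all other tested genes. Removing the mean leaves the spread of each arm, so an arm with a wide spread weighs more. The SD of log2 CPM of ATP2B2 was 1.33 with vehicle, 0.25 with enzalutamide and 0.53 with ARN-509. For GRIA2 it was 0.75, 1.12 and 0.75.

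Relatives of the 10 genes mostly did not move with them. CYR61, the only other tested gene of 6 in the CCN family, differed by -0.07 and -0.02 (enzalutamide and ARN-509 against vehicle, log2) and OPRL1, the only other tested opioid gene of 8, by -0.02 and -0.17, and none passed. Of 11 tested glutamate receptor genes and partners other than GRIA2, 0 rose and 1 fell with enzalutamide, and 3 rose and 1 fell with ARN-509 (median log2 -0.03 and -0.05, against -0.004 and -0.001 over all tested genes). The one that fell was CACNG4, an auxiliary subunit of AMPA receptors, which dropped by 2.75 ± 0.31 and 2.76 ± 0.30 (SE, edgeR adjusted p = 1.12e-08 and 2.69e-09). CACNG4 averaged 9.29 CPM with vehicle, 1.35 with enzalutamide and 1.34 with ARN-509. GRIN3A (0.95 ± 0.20), GRIP2 (0.29 ± 0.09) and CACNG8 (0.42 ± 0.16) rose with ARN-509. The AMPA subunits GRIA1, GRIA3 and GRIA4 did not pass the filter on low counts.

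Among 8 other calcium pumps and exchangers, 1 rose and 3 fell with enzalutamide, and 2 rose and 2 fell with ARN-509 (median log2 -0.24 and -0.04). SLC8A2, a sodium-calcium exchanger, rose by 0.71 ± 0.11 with each drug (adjusted p = 5.95e-06 and 2.21e-06). ATP2B4, another plasma membrane pump, fell by 0.68 ± 0.11 and 0.43 ± 0.10. Of 10 other genes of the SLC7 family and its SLC3 partners, 2 rose and 2 fell with enzalutamide, and 1 rose with ARN-509 (median log2 -0.03 and 0.10). SLC3A1, the heavy chain of a cystine transporter, rose by 1.06 ± 0.23 and 0.90 ± 0.22. Of 21 other tetraspanins, 5 rose and 2 fell with enzalutamide, and 4 rose and 9 fell with ARN-509 (median log2 0.01 and -0.18). TSPAN2 rose by 0.93 ± 0.22 and 1.26 ± 0.21, whereas TSPAN13 fell by 0.50 ± 0.08 and 0.46 ± 0.07. Of 3 partners of FRAS1, only FREM2 passed, and it fell by 0.86 ± 0.22 with enzalutamide (adjusted p = 0.00656). Of 10 other G protein beta and gamma subunits, 0 passed with enzalutamide, and 1 rose and 2 fell with ARN-509 (median log2 -0.02 and -0.06). Of these, GNB2 fell by 0.55 ± 0.09. Shares of 5.10% to 16.1% of all tested genes passed in each direction, and these lists are small.

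Other genes described as lowered by androgen did not all rise. Of 5 tested besides NOV and OPRK1, 1 rose and 1 fell with each drug (median log2 0.20 and 0.35). CAMK2N1, an inhibitor of a calmodulin kinase, rose by 0.85 ± 0.13 and 1.02 ± 0.12. HSD17B6, a steroid-metabolizing enzyme, fell by 0.76 ± 0.11 and 0.76 ± 0.10. Among 11 genes for transcriptional repressors and related regulators, 0 passed with enzalutamide (edgeR, 3 with an unadjusted p below 0.05), while with ARN-509 1 rose and 4 fell (median log2 -0.12 and -0.05). The one that rose was REST, a repressor of neuronal genes (0.32 ± 0.12, adjusted p = 0.0318), which was chosen after its value was seen. Of 10 tested neuroendocrine and neural markers, SCG2 rose with enzalutamide (1.23 ± 0.34, adjusted p = 0.0127) and NCAM1 and ENO2 with ARN-509 (0.78 ± 0.18 and 0.51 ± 0.18), with medians of 0.13 and 0.11. NEUROD1 and FOXA2 had a median count of 0 in every arm. The androgen-induced list moved unevenly: of 10 genes, 1 rose and 4 fell with enzalutamide and 1 rose and 6 fell with ARN-509 (median log2 -0.08 and -0.36).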

How the data were processed

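RNA of 44 xenograft tumors was sequenced from TruSeq RNA v2 libraries, which do not mark strand, per the labels' protocols. The table that the authors deposited gives raw counts for each gene and tumor. The submitters' processing notes name TopHat2 2.1.0, HTSeq 0.6.1, bcl2fastq 1.8.4 and Picard 1.77, and the hg19 build. Counting settings and the handling of mouse reads: not given in the sources used here. Mouse reads and reads of related genes may stand in some counts. The 10 genes, the gene lists and the rule for named genes were chosen with earlier results of these data known. Named were the 10 genes, up to 4 tested genes of each of 13 lists with the smallest p, the genes ranked next to them, the gene most alike each, and 4 androgen-induced genes. A further gene of the relations and lists and a neural marker are not reported here, and the former stayed in the 150 relations adjusted together. Genes named beyond this rule (the ranks between, untested relatives, markers) were chosen after their values were seen.

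Without enzalutamide 4, filterByExpr chose the genes, TMM set the scaling, and a quasi-likelihood model of the 3 arms was fitted robustly in edgeR 4.0.16 under R 4.3.3. Adjusted p-values are Benjamini-Hochberg over the 13520 tested genes, with a threshold of 0.05. Levels are CPM after TMM, and correlations used log2 CPM with a prior count of 2. No 2 libraries of an arm were copies (lowest chi-square per degree of freedom 3.42). The tests were checked on simulated data. Alternatives were DESeq2 1.42.0, limma 3.58.1 voom, other scalings, filters and prior counts, a replicate block and leaving out each library. Added after seeing the data were the fits without vehicle 8 and 10 and after removing the dependence on GC content and length (97.8% of tested genes had a value).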

Additional observations from a re-analysis of the deposited data

Results flagged for a closer look

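The library enzalutamide 4, which entered no comparison, held 3 TSPAN7 counts of 80142, or 37.4 CPM of its total. The exact Poisson 95% interval was 7.72 to 109.0 (counting error only), above the highest vehicle tumor at 1.63 CPM. That interval also lay above the highest other enzalutamide tumor, at 3.66 CPM, and the cause was not tested. Over 4708 genes this library tracked its arm poorly (r = 0.448, against 0.963 or higher for every other enzalutamide tumor). It also held 2 counts of GRIA2 (25.0 CPM, interval 3.02 to 90.1, highest vehicle tumor 21.9 CPM). The other 8 genes had 0 counts, which by a floor of 3 counts allows up to 37.4 CPM each (exact Poisson 95% upper limit 46.0).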

How the results depend on the processing

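For the 10 genes, all 799 alternative values of the log2 fold changes against vehicle kept their direction. They moved by less than 1 SD of the gene's log2 CPM within arms (most for ATP2B2, to 2.86 and 3.01 under voom). Of 390 alternative values between the drugs, 375 kept their call, 14 passed the threshold newly (NOV, SLC7A14, GRIA2 and FRAS1) and 1 no longer did (GNG2, above). Direction between the drugs was not always kept by genes that were not called. Values ran from -0.202 to 0.177 for SAMD11, -0.12 to 0.095 for LOC100130417 and -0.24 to 0.015 for OPRK1. Counts of called genes moved by more than 1.5 times under voom with quality weights (2547 for enzalutamide against vehicle and 5707 between the drugs) and after removing the dependence on GC content and length (1080 between the drugs). Leaving out 1 library of the arms compared gave 1145 to 1794 (enzalutamide against vehicle), 3261 to 5045 (ARN-509 against vehicle) and 2680 to 4164 genes (between the drugs). The sample number as a replicate block gave 1197, 4084 and 3290 genes. The labels do not say that the numbers pair the tumors. Over 41 pairs with the same number the correlation of deviations ran from -0.35 to 0.62 (median 0.02), and 12 pairs were above 0.1. Of 43 tumors, 4 correlated best with their own number. Pairing was not tested.

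Pairs called by rho were 3, 0 and 0 (vehicle, enzalutamide, ARN-509), and by correlation given depth 10 with vehicle and 4 with enzalutamide. Without single tumors, pairs ranged from 4 to 8, 0 to 3 and 0 to 2. With enzalutamide the count fell to 0 without tumor 1 or 10, and with ARN-509 without tumor 2, 11, 12 or 14. Relations to androgen-induced genes numbered 4 with vehicle at a prior count of 0.5. With enzalutamide they numbered 1 by rho, 4 with library totals and 4 given depth, and with ARN-509 1 with library totals and 1 given depth. Without single tumors they ranged from 2 to 9, 1 to 5 and 0 to 3. The cause of these shifts was not tested. Depth limits the low genes most: vehicle values of SLC7A14, TSPAN7 and ATP2B2 rest on a median of 4, 4 and 3 counts.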

Other observations

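GRIA2 and OPRK1 had an r of 0.675 in vehicle tumors (permutation p = 0.00391, adjusted p = 0.051, rho = 0.564), -0.639 with enzalutamide (p = 0.022, adjusted p = 0.129, rho = -0.451) and -0.617 with ARN-509 (p = 0.014, adjusted p = 0.099, rho = -0.529). None of these passed after adjustment, although the correlation given depth did in vehicle tumors (0.666, adjusted p = 0.045), and the difference in sign between arms was not tested. Without the 2 tumors farthest from the median of GRIA2, r was 0.449, -0.166 and -0.660. SAMD11 and ATP2B2, at 0.822 with vehicle, had -0.397 and -0.519 in the treated arms, neither of which passed. Without the 2 tumors farthest from the median of SAMD11 these were 0.724, -0.306 and -0.092, and rho with ARN-509 was -0.182.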
